A study of Mus musculus with 6 samples.

Results

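Complement is a set of plasma and membrane proteins that tags particles and cells and attracts phagocytes, and 9 of its genes were followed here: C3, C4b, Cfb and Cfp, which encode components of the cascade, C1qa, C1qb and C1qc, which encode the chains of C1q, and C3ar1 and C5ar1, which encode the anaphylatoxin receptors. They were taken by name as the complement components and receptors of interest in the series, and each of the 9 genes has an entry of its own among the 26384 gene entries of the table. RNA-Seq was done on GFP+ MLL-AF9 cells from mouse bone marrow, with 3 libraries from mice given FF-10501-01 and 3 from mice given vehicle. FF-10501-01 inhibits IMPDH, an enzyme of guanine nucleotide synthesis, and the comparison asks how its inhibition in the living mouse alters the transcriptome of leukemia cells.

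Both groups carried the same kind of leukemia cells. Mouse bone marrow progenitors had been transduced with a retrovirus that expresses the MLL-AF9 fusion oncogene together with GFP, grown out in irradiated mice and passed serially from mouse to mouse. The resulting leukemia cells were then given to C57BL/6J mice that were not irradiated and so kept their own blood cells. FF-10501-01 was given at 160 mg/kg on 2 consecutive days, and the labels place the harvest 48 h after the first dose. The RNA-Seq methods of the study give a shorter interval. The vehicle is a methyl cellulose solution in the methods and water in the sample descriptions, and the age of the mice is not stated in the labels. The leukemia markers Hoxa9 (in an entry merged with Mir196b), Hoxa10, Meis1, Itgam and Kit were above 1 FPKM in all 6 libraries. In the test described further on, Hoxa9 and Itgam were higher after FF-10501-01 (adjusted p = 0.0465 and 0.00847 from limma). Kit was lower (adjusted p = 0.0476 from limma), and Hoxa10 and Meis1 did not pass. These calls stand beside 7.43% of all entries tested that were called higher and 7.46% lower. When that test was run with no filter on low values, Hoxa9 (adjusted p = 0.107 from limma) and Kit (0.1004) lost the call. Itgam kept its call there (adjusted p = 0.0414 from limma). The paper, which used Cuffdiff, reports no effect on Hoxa9 or Meis1. FPKM (fragment counts divided by transcript length in kilobases and scaled to the library) summed to 531092 to 551958 per library, and 15159 to 15597 entries were above 0. Read totals are not in the table, and the depth relative to vehicle replicate 1, estimated from entries at low FPKM, was 0.986 to 1.11 in the FF-10501-01 libraries and 1 to 1.25 in the vehicle libraries. Replicate numbers here follow the columns of the table and are not tied to a mouse.

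In the classical pathway, C1q binds its target and the proteases it carries cleave C4, while the lectin pathway reaches C4 through mannose-binding lectins and ficolins. In the alternative pathway, factor B (Cfb) joins activated C3 to form an enzyme that cleaves more C3, and properdin (Cfp) stabilizes that enzyme. All routes meet at C3, whose cleavage leaves C3b on the target and releases C3a, and the later step on C5 releases C5a. C3a and C5a signal through C3ar1 and C5ar1. The liver makes most of the C3 in plasma, and cells of the myeloid lineage make C3, properdin and C1q locally.

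All 9 genes lie on the minus strand of GRCm38 in the GENCODE annotation. C3 spans chr17:57203970-57228136, and C4b (chr17:34728380-34743882) and Cfb (chr17:34856374-34862518) lie in the major histocompatibility complex of the same chromosome. C1qb (chr4:136880129-136886187), C1qc (chr4:136889804-136893065) and C1qa (chr4:136895917-136898803) are neighbors. Cfp is at chrX:20925454-20931555, C3ar1 at chr6:122847138-122856161 and C5ar1 at chr7:16246743-16259540. In the RefSeq promoter table (GRCm38.p6) 6 of the 9 genes were matched, and C4b, Cfb and C1qa have no entry there. The windows of C3 and Cfp are shown because these are the genes among the 6 that passed the test of the treatment described further on. Each holds 250 bases before and 50 bases after the annotated start, read 5′ to 3′ on the strand of the gene, and the capitals mark motif matches.
C3: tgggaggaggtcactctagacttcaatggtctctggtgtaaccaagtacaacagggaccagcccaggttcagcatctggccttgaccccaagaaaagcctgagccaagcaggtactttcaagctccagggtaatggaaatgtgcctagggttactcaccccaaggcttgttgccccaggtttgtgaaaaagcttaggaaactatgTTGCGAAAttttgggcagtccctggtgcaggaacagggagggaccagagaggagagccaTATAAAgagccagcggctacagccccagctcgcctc
Cfp: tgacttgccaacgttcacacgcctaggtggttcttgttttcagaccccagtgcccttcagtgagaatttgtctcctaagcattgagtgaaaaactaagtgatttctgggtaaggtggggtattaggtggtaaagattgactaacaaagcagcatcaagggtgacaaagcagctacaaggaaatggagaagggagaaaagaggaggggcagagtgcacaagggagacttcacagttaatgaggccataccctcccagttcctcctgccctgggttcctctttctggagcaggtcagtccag
The C3 window is chr17:57228087-57228386 and the Cfp window is chrX:20931506-20931805, both minus strand. Both strands were searched for 5 motifs. These were the interferon-stimulated response element (GAAANNGAAA), the GAS element (TTCNNNGAA), the NF-kB consensus, a C/EBP core (TTGCNNAA) and the TATA motif (TATAAA), and the C/EBP core and TATA motifs were chosen after the C3 window had been read. The capitals in C3 are a C/EBP core, TTGCGAAA, which begins 45 bases before the start, and a TATAAA at position 15 after it. Of all 32851 windows of the table, 10.8% hold the C/EBP core, 13.6% TATAAA, 3.44% the interferon-stimulated response element, 8.30% the GAS element and 8.46% the NF-kB consensus. Cfp, C1qb and C5ar1 have no match to any of the 5 motifs in this window, C1qc has an NF-kB match that begins 41 bases before its start, and C3ar1 has a TATAAA 235 bases before its start. A match describes the letters only.

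In GFP+ cells of FF-10501-01-treated mice, C3, C4b, Cfp and Cfb were higher than in those of vehicle-treated mice, C3 by 2.18-fold and the other genes by 1.28-fold to 1.43-fold (ratios of mean FPKM). The C5a receptor C5ar1 did not pass, and the C1q genes and C3ar1 were under the level at which genes were tested. Of the 9 genes, 5 had a mean of at least 1 FPKM over the 6 libraries and were tested, and 4 of these 5 rose and 0 fell (adjusted p under 0.05 from limma, Benjamini-Hochberg over all 11004 entries tested). Over all entries tested, 7.43% were called higher and 7.46% lower. The median log2 fold change of the 5 genes was 0.41, against -0.01 for all entries tested. In bulk RNA, more cells of one type and more RNA per cell cannot be told apart.

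C3 was the most abundant of the 9 genes in treated cells. Its level was 202, 229 and 284 FPKM in the FF-10501-01 libraries, against 89.7, 133 and 106 FPKM in the vehicle libraries. The lowest treated library stood 69.9 FPKM above the highest vehicle library, so that the groups did not overlap. The means were 239 ± 41.9 FPKM in FF-10501-01-treated cells and 109 ± 21.6 FPKM in vehicle-treated cells (SD, n = 3 each). On the log2(FPKM + 1) scale the difference was 1.12 (SE 0.15, 95% interval 0.77 to 1.47, adjusted p = 0.00914 from limma). C3 ranked 460 among the 11004 tested entries by mean level and 33 by log2 fold change. Set against the vehicle mean, the treated libraries stood at 1.85, 2.09 and 2.60 times, so that all 3 libraries shared the direction. The coefficient of variation was 17.6% in the treated group and 19.8% in the vehicle group.

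C4b encodes the C4 of the classical and lectin pathways. It had 135, 130 and 154 FPKM in the FF-10501-01 libraries, against 92.5, 102 and 99.1 FPKM in the vehicle libraries, with no overlap. The means of 140 ± 12.8 FPKM in treated cells and 97.9 ± 4.93 FPKM in vehicle-treated cells (SD, n = 3 each) gave a log2 fold change of 0.51 (SE 0.07, adjusted p = 0.00903 from limma). C4b has a related gene nearby, C4a, and 16.5% of the 100-base stretches of the C4b transcript also occur in C4a. The C4a entry was at 0.148 to 0.182 FPKM in treated cells and 0.0656 to 0.153 FPKM in vehicle-treated cells, so the sum of both genes is nearly all C4b as the table assigns the reads. How the authors' counting split reads that fit both genes is not given in the sources used here.

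Cfp encodes properdin, the positive regulator of the alternative pathway. Its 141, 152 and 136 FPKM in the FF-10501-01 libraries all lay above its 104, 113 and 105 FPKM in the vehicle libraries. The means were 143 ± 7.95 FPKM in treated cells and 107 ± 4.70 FPKM in vehicle-treated cells (SD, n = 3 each), a log2 fold change of 0.41 (SE 0.05, adjusted p = 0.00847 from limma). Its replicates varied little, with a coefficient of variation of 5.57% in the treated group and 4.39% in the vehicle group. FF-10501-01 replicate 3, the highest treated library for 8 of the 9 genes, was the lowest of the treated libraries for Cfp.

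Cfb encodes factor B, the protease of the alternative pathway. It had 50.9, 43.7 and 55.4 FPKM in the FF-10501-01 libraries, against 38.7, 38.9 and 39.2 FPKM in the vehicle libraries. The vehicle values were nearly equal, while the treated values spread over 11.8% of their mean (coefficient of variation) and came within 4.49 FPKM of the highest vehicle library. The log2 fold change was 0.35 (SE 0.08, 95% interval 0.17 to 0.52, adjusted p = 0.0259 from limma). This call was lost with no filter on low values (adjusted p = 0.0669 from limma), and without FF-10501-01 replicate 1 (0.0627), FF-10501-01 replicate 3 (0.0808), vehicle replicate 1 (0.0817) or vehicle replicate 3 (0.0670), with log2 fold changes of 0.27 to 0.35. An annotated readthrough gene on the same strand, Gm20547, has no entry and holds 81.0% of the 100-base stretches of the Cfb transcript, so reads within those stretches fit both genes. C2, the factor B homolog of the classical pathway in the adjoining position, was at 0.193 to 0.276 FPKM in treated cells and 0.0855 to 0.171 FPKM in vehicle-treated cells.

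**Figure D1:**
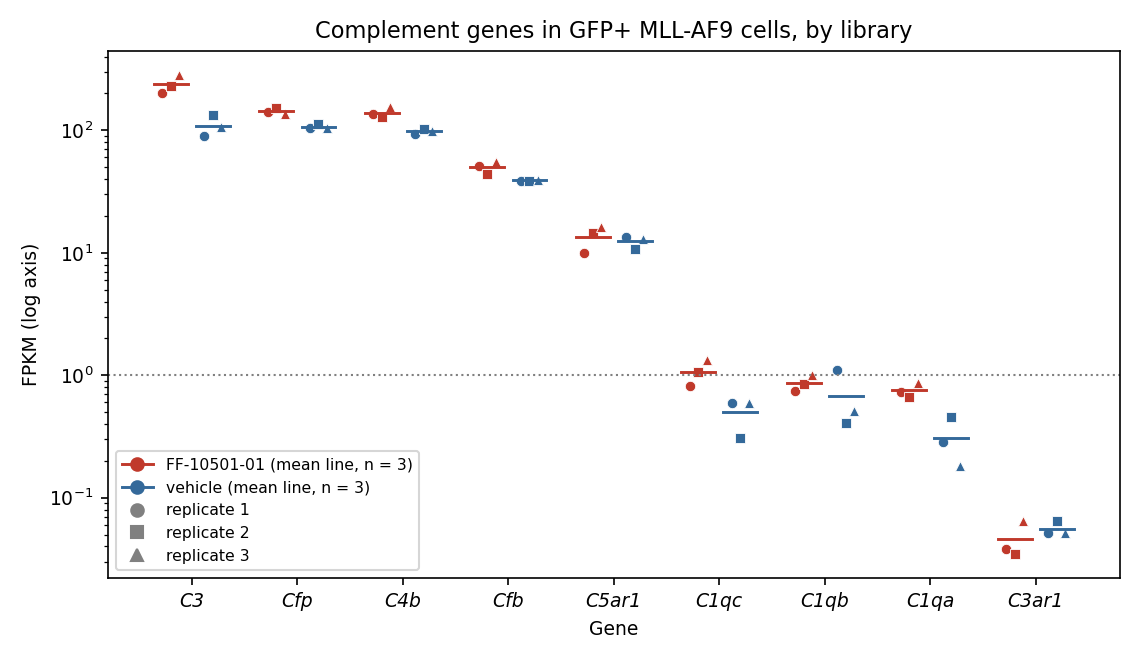
FPKM (log axis) of the 9 complement genes in each library, with FF-10501-01 libraries left of vehicle libraries, marker shapes for replicates, lines for group means and a dotted line at 1 FPKM. C3, Cfp, C4b and Cfb lie above 38 FPKM with groups that do not overlap, C5ar1 lies at 9.97 to 16.1 FPKM with groups that overlap, and the C1q genes and C3ar1 lie near or under 1 FPKM.

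C5ar1, the receptor for C5a, had 9.97, 14.5 and 16.1 FPKM in the FF-10501-01 libraries, against 13.4, 10.7 and 13.05 FPKM in the vehicle libraries. The groups overlapped, since the treated group held both the lowest and the highest library. The log2 fold change was 0.10 (SE 0.16, 95% interval -0.26 to 0.46, adjusted p = 0.688 from limma), and without FF-10501-01 replicate 3 it was -0.032. The interval allows a change in either direction. C3ar1, the receptor for C3a, was barely detected, at 0.0381, 0.0348 and 0.0651 FPKM in treated cells and 0.0514, 0.0642 and 0.0515 FPKM in vehicle-treated cells. These levels overlapped (exact permutation test, two-sided, p = 0.5, where 3 against 3 libraries cannot give less than 0.1). After scaling by relative depth, the C3ar1 values lay within 0.1 of 3, 3 and 5 multiples of one unit in treated cells and of 4, 5 and 5 in vehicle-treated cells, so they rest on few fragments if that unit is a single fragment. No difference in C3ar1 could be read from values this low.

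The chains of C1q, the recognition molecule of the classical pathway, were far below C4b. Summed over C1qa, C1qb and C1qc, the level was 2.30, 2.58 and 3.19 FPKM in the FF-10501-01 libraries, against 1.98, 1.17 and 1.29 FPKM in the vehicle libraries. C1qa had 0.733, 0.669 and 0.867 FPKM in treated cells and 0.285, 0.455 and 0.183 FPKM in vehicle-treated cells, with no overlap (difference 0.43 on the log2(FPKM + 1) scale, exact permutation test, two-sided, p = 0.1). C1qc had 0.814, 1.07 and 1.32 FPKM in treated cells and 0.588, 0.309 and 0.597 FPKM in vehicle-treated cells, also with no overlap (difference 0.46, exact permutation p = 0.1). C1qb had 0.749, 0.842 and 1.00 FPKM in treated cells and 1.11, 0.407 and 0.514 FPKM in vehicle-treated cells, where vehicle replicate 1 was the highest of all 6 libraries (difference 0.17, exact permutation p = 0.4). The smallest p that 3 against 3 libraries allow is 0.1, so none of these genes could pass alone. Among all entries with a mean of 0.3 to 1 FPKM, 11.4% had every treated library above every vehicle library. With no filter on low values, the adjusted p from limma was 0.0511 for C1qa, 0.541 for C1qb and 0.0773 for C1qc. The pseudocount of 1 shrinks differences at this level, and with 0.1 in its place the difference was 1.12 for C1qa, 0.41 for C1qb and 0.98 for C1qc.

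The order of the genes by level (FPKM, which is per length) was partly the same in both groups. Within treated cells C3 stood above all other genes in every library, and Cfp and C4b followed with overlapping ranges of 136 to 152 FPKM and 130 to 154 FPKM. Within vehicle-treated cells C3, Cfp and C4b overlapped, at 89.7 to 133, 104 to 113 and 92.5 to 102 FPKM. Cfb came next and then C5ar1, in both groups without overlap with their neighbors, while C1qa, C1qb and C1qc overlapped among themselves in both groups. C3ar1 was the lowest in all 6 libraries.

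Summed over the 9 genes, the level was 542, 570 and 649 FPKM in the FF-10501-01 libraries, against 340, 398 and 364 FPKM in the vehicle libraries. C3 made up 37.4%, 40.1% and 43.8% of that sum in treated cells and 26.4%, 33.3% and 29.1% in vehicle-treated cells. Together C3, C4b, Cfp and Cfb made up 97.0% to 97.7% in treated cells and 95.5% to 97.0% in vehicle-treated cells, so the sum is a reading of these 4 genes.

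**Figure D2:**
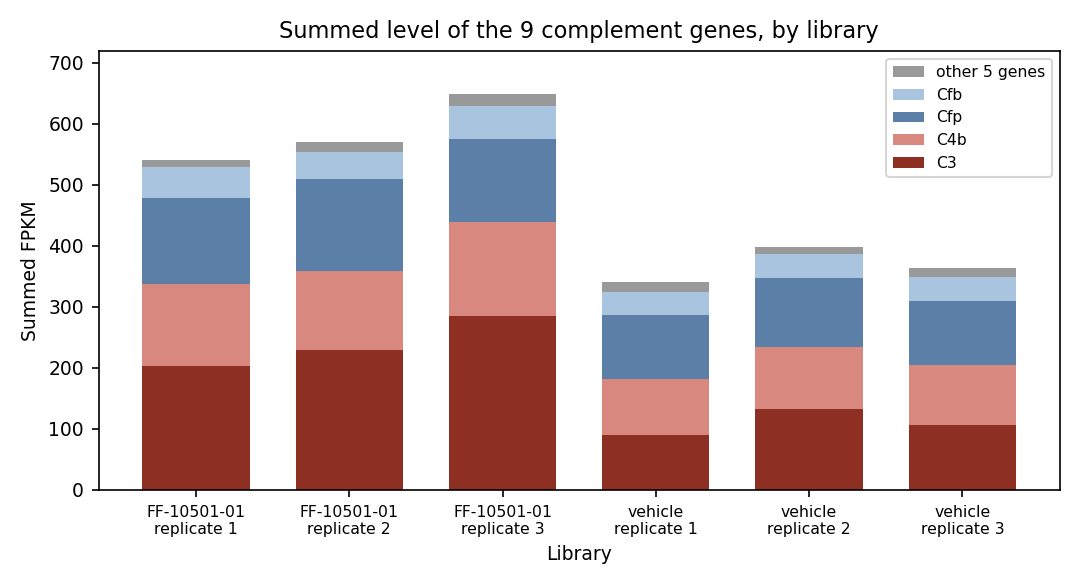
Summed FPKM of the 9 complement genes in each library (FF-10501-01 libraries left, vehicle libraries right), with segments for C3, C4b, Cfp, Cfb and the other 5 genes. The FF-10501-01 bars reach 542 to 649 FPKM and the vehicle bars 340 to 398 FPKM, and the C3 segment is taller in every FF-10501-01 library than in any vehicle library.

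A wider set of 45 complement genes places these values in the pathway. All 45 had an entry, 4 of them under an older symbol. Of these, 13 were at 0 in all libraries, 24 more were under the filter, and of the 8 tested 4 rose, 0 fell and 4 did not pass (limma), beside the 7.43% of all entries called higher. With C3, C4b, Cfp, Cfb and C5ar1 added, 8 of 13 tested complement genes rose, with a median log2 fold change of 0.33. Both lists were put together with results of these data known, so their counts are not independent evidence of a direction.

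Among the receptors, Itgam and Itgb2, the chains of complement receptor CR3, rose. Itgam had 206, 209 and 225 FPKM in the FF-10501-01 libraries, against 166, 171 and 171 FPKM in the vehicle libraries (log2 fold change 0.33, SE 0.04, adjusted p = 0.00847 from limma). Itgb2, the beta chain that is shared with other leukocyte integrins, had 204, 201 and 227 FPKM in treated cells and 151, 153 and 155 FPKM in vehicle-treated cells (0.46, SE 0.05, adjusted p = 0.00601 from limma). Neither gene overlapped between groups, and both passed under all 14 alternatives run. Itgax, the alpha chain of CR4, was under the filter at 0.497 to 0.851 FPKM in treated cells and 0.357 to 0.496 FPKM in vehicle-treated cells. Cd93, a myeloid surface protein once described as a C1q receptor, was the most abundant receptor that did not pass, at 86.4, 77.7 and 74.7 FPKM in treated cells and 82.9, 81.2 and 91.4 FPKM in vehicle-treated cells (-0.10, SE 0.07, adjusted p = 0.341 from limma). C5ar2, the other C5a receptor, was at 0.738 to 0.966 FPKM in treated cells and 0.714 to 1.17 FPKM in vehicle-treated cells.

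In the classical and lectin pathways, 3 of the 4 genes tested rose, which were C4b, Fcnb and C1rl, beside the 7.43% of all entries called higher. Fcnb, a ficolin of the lectin pathway that granulocytes and monocytes store, had 2.65, 5.45 and 8.16 FPKM in the FF-10501-01 libraries, against 0.903, 1.48 and 1.18 FPKM in the vehicle libraries (log2 fold change 1.46, SE 0.29, adjusted p = 0.0191 from limma). Its treated libraries lay far apart, with FF-10501-01 replicate 3 the highest. C1rl, which encodes a protease related to C1r, had 10.4, 11.5 and 12.6 FPKM in treated cells and 8.46, 9.86 and 8.69 FPKM in vehicle-treated cells (0.32, SE 0.08, adjusted p = 0.0375 from limma). The calls of Fcnb and C1rl were both lost without FF-10501-01 replicate 2, FF-10501-01 replicate 3, vehicle replicate 1 or vehicle replicate 3 (adjusted p of 0.0523 to 0.0694 for Fcnb and 0.0931 to 0.125 for C1rl, limma). Both were also lost with no filter on low values (adjusted p = 0.0598 for Fcnb and 0.0906 for C1rl, limma). That of C1rl was lost with eBayes without a trend as well (adjusted p = 0.0531 from limma). In the fits that lost both, Itgam and Itgb2 were the other complement genes that kept their calls, and C4b kept its own. Colec12, a scavenger receptor collectin, was the most abundant gene of this list that did not pass, at 1.35 to 1.51 FPKM in treated cells and 1.23 to 1.74 FPKM in vehicle-treated cells. C1ra, C2 and C4a were under 0.3 FPKM in every library, and Mbl1 and Mbl2 were at 0 in all.

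In the alternative pathway, C3, Cfb and Cfp are 3 of the 4 genes listed, and the fourth, Cfd, which encodes the protease that cleaves factor B, was under the filter. Cfd had 0.408, 0.620 and 0.766 FPKM in treated cells and 0.413, 0.616 and 0.772 FPKM in vehicle-treated cells, which overlapped. Of the 7 terminal pathway genes, which encode the proteins of the membrane attack complex, 5 were at 0 in all libraries, among them Hc, the gene of C5, and none was tested. C8g was the highest of them, at 0.118 to 0.432 FPKM in treated cells and 0.418 to 0.839 FPKM in vehicle-treated cells. Of the regulators, Cr1l and Cpn1 were tested and neither passed. Cr1l, which encodes the rodent membrane regulator Crry, had 59.1, 57.2 and 56.3 FPKM in treated cells and 57.5, 57.5 and 58.5 FPKM in vehicle-treated cells, with a log2 fold change of -0.01 and a 95% interval of -0.10 to 0.08. Cpn1, a subunit of the carboxypeptidase that inactivates C3a and C5a, had 2.07 to 3.39 FPKM in treated cells and 2.77 to 3.62 FPKM in vehicle-treated cells (-0.12, adjusted p = 0.578 from limma). Clu, Serping1 and Vtn, regulators of the fluid phase, were under 0.3 FPKM in every library.

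**Figure D3:**
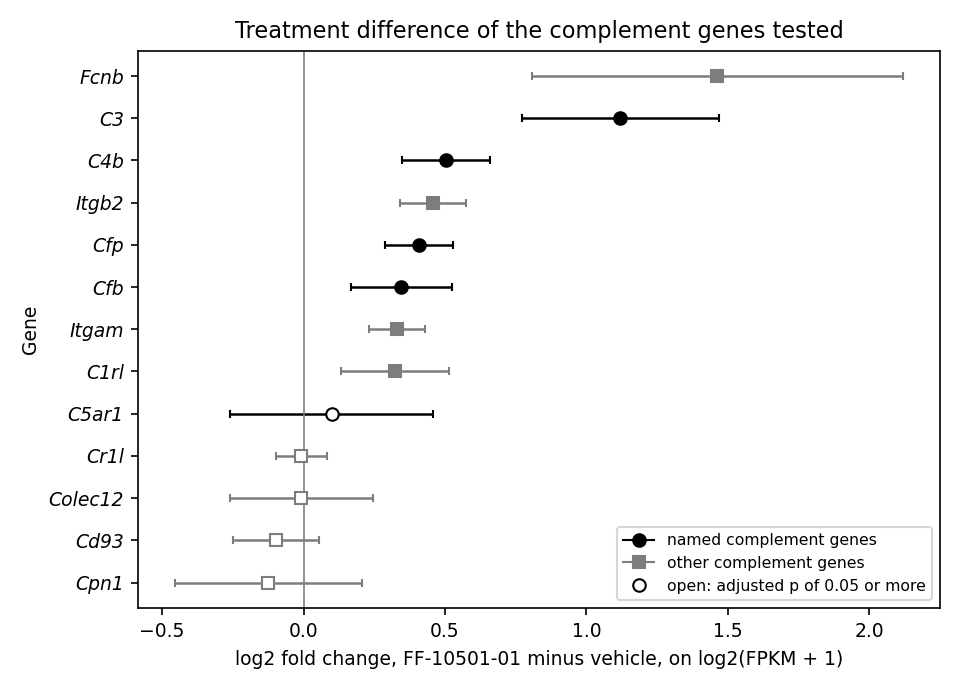
Log2 fold change of the 13 complement genes tested, FF-10501-01 minus vehicle on log2(FPKM + 1), with 95% intervals from limma. Circles are the 5 named genes, squares the other complement genes, and filled marks have an adjusted p under 0.05. The 8 filled marks lie between 0.32 and 1.46, and the 5 open marks have intervals that include 0.

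The 95% interval of C3, 0.77 to 1.47, lay above those of C4b (0.35 to 0.66), Cfp (0.29 to 0.53) and Cfb (0.17 to 0.52). The difference in fold change between genes was not tested. Over all 11004 entries tested, 17.6% had every treated library above every vehicle library, and 4 of the 5 tested genes did.

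Other changes stood beside these. FF-10501-01 replicate 3 was the highest treated library for 8 of the 9 genes, whereas the highest vehicle library was replicate 2 for 5 genes and replicate 1 or 3 for 2 genes each. The summed level of 10 neutrophil markers was 925, 1211 and 1906 FPKM in the FF-10501-01 libraries, against 568, 591 and 542 FPKM in the vehicle libraries. This sum had the same order of treated libraries as C3, C5ar1, C1qb and C1qc, but not as C4b, Cfp, Cfb, C1qa or C3ar1. Its order of vehicle libraries was shared by C1qa and by no other of the 9 genes. What these orders reflect was not tested. Of the 8 neutrophil markers tested, 6 rose and 2 did not pass (limma), beside the 7.43% of all entries called higher. With no filter on low values, Camp, Ngp and Cxcr2 lost the call (adjusted p of 0.0504 to 0.0543 from limma). Mmp9, S100a8 and S100a9 kept it there, and Ltf, which is under the filter, passed. None of the 10 neutrophil markers was at 0 in all libraries. Without FF-10501-01 replicate 3, C3 had a log2 fold change of 0.99, C4b 0.43 and Cfp 0.44, and these 3 genes passed. Cfb had 0.27 there and did not pass (adjusted p = 0.0808 from limma).

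Markers of tissue macrophages, a cell type that makes C1q, C3 and properdin, were looked at in the same libraries. The summed level of 14 such markers was 69.3 to 71.6 FPKM in treated cells and 54.1 to 61.8 FPKM in vehicle-treated cells. Of the 5 tested, 3 rose (Adgre1, entered under its older symbol Emr1, Slc40a1 and Siglec1) and 2 did not pass (limma). This stands beside the 7.43% of all entries called higher. With no filter on low values, Adgre1 (adjusted p = 0.0582 from limma) and Slc40a1 (0.0952) lost the call and Siglec1 kept it (0.0414). On the same list, Clec4f, Marco, Vsig4 and Timd4 were at or near 0, with at most 0.0788 FPKM in any library. Mrc1, Mertk and Spic had at most 0.351 FPKM in any library and overlapped between groups. Hmox1, which did not pass, had 14.8 to 15.4 FPKM in treated cells and 12.3 to 16.3 FPKM in vehicle-treated cells. Axl had 0.372 to 0.518 FPKM in treated cells and 0.161 to 0.305 FPKM in vehicle-treated cells, which did not overlap. Cd163 had 0.847, 0.344 and 0.0965 FPKM in treated cells and 2.67, 0.758 and 2.52 FPKM in vehicle-treated cells. These overlapped, and Cd163 did not pass (log2 fold change -1.02, adjusted p = 0.0532 from limma). Cd5l, also a macrophage gene, had 0.419, 0.535 and 0.486 FPKM in treated cells and 0.0847, 0.225 and 0.136 FPKM in vehicle-treated cells, which did not overlap. Axl and Cd5l were under the filter. Of all entries with a mean of 0.3 to 1 FPKM, 11.4% had every treated library above every vehicle library. With no filter on low values, Cd5l passed (adjusted p = 0.0414 from limma) and Axl did not (0.0699). The part of neutrophil-marker and macrophage-marker RNA in the complement values was not tested. Hepatocyte markers summed to at most 0.0629 FPKM in treated cells and 0.194 FPKM in vehicle-treated cells, beside more than 89 FPKM of C3 in every library.

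The genes near the complement loci were read as well, within 100 kb, a distance chosen after the data had been seen. Near C3, 2 of 4 tested entries rose (Tnfsf14, a TNF family ligand, and Gpr108) and 0 fell. Near C4b and Cfb, 3 of 10 rose (Ppt2, Neu1 and Hspa1b) and 1 fell (1110038B12Rik). Near Cfp none of 3 tested entries passed, and near the C1q genes the 1 tested entry, Zbtb40, did not pass. Of all entries tested, 7.43% were higher and 7.46% lower, and these small counts were not tested against that share.

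**Figure D4:**
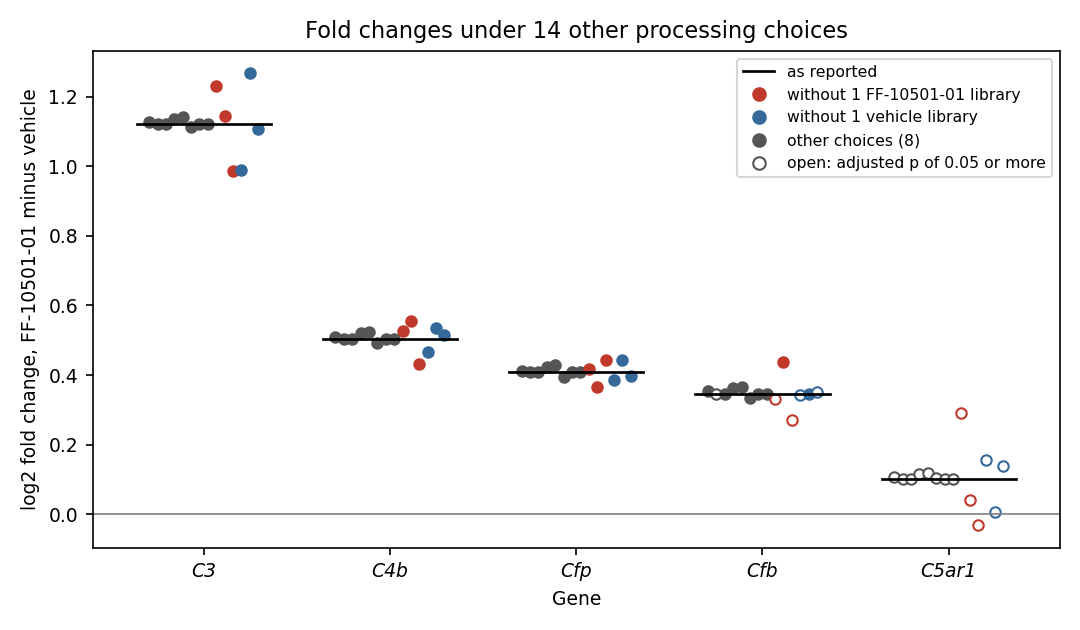
Log2 fold change (FF-10501-01 minus vehicle) of the 5 tested genes as reported (black lines) and under 14 other processing choices, with red for leaving out 1 FF-10501-01 library, blue for leaving out 1 vehicle library, grey for the 8 other choices and open circles for an adjusted p of 0.05 or more. C3 keeps to 0.99 to 1.27, C4b to 0.43 to 0.56 and Cfp to 0.36 to 0.44 with filled marks, Cfb has 5 open marks, and C5ar1 has open marks at -0.032 to 0.29.

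Under the 14 alternatives, C3 had log2 fold changes of 0.99 to 1.27, C4b of 0.43 to 0.56 and Cfp of 0.36 to 0.44, and all 3 genes passed under each (adjusted p of at most 0.0414 from limma). Cfb passed under 9 of the 14 and had values of 0.27 to 0.44. C5ar1 passed under none of them (adjusted p of 0.105 to 0.981).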

How the data were processed

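RNA-Seq libraries of GFP+ MLL-AF9 cells were compared between mice given FF-10501-01 and mice given vehicle (3 libraries each). The deposited FPKM were made by the authors, with read trimming by cutadapt 1.8.1, alignment by TopHat2 2.1.1 on GRCm38 and gene quantification by Cufflinks 2.2.1, per the paper and the submitters' processing notes. The table holds no counts, so the authors' Cuffdiff test was not repeated and no counting interval was computed. It holds 26384 entries, of which 394 merge several genes and 9091 are at 0 throughout, and 0 columns were left out. The column names give the group but not which sample, so each column was assigned to its group only.

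FPKM were taken as log2(FPKM + 1) and tested with limma 3.58.1 (R 4.3.3) in all 11004 entries that averaged 1 FPKM or more. Treatment was the only term and eBayes used a trend. Tests were two-sided with Benjamini-Hochberg adjustment, and a gene passed when its adjusted p was under 0.05. The paper describes the 3 libraries of each group as biological replicates, from 6 recipient mice in all. Genes under the filter were compared by exact permutation. Same-numbered libraries did not deviate together (r of -0.01, -0.07 and -0.04). The numbers are not tied to a mouse, so this cannot tell whether libraries were paired in the experiment. The script was tested on simulated data.

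Named genes were the 9 members, each wider complement gene that passed, and the most abundant in each list that did not. Members and lists were chosen with earlier results of these data known. Values of other genes given beside them were chosen after the data were seen. Positions came from GENCODE M21 and promoter windows from RefSeq. Shared 100-base stretches were counted over all GENCODE transcripts. Relative depth was the most frequent ratio between 2 libraries over entries at or below 0.3 FPKM. Python 3.11.15, pandas 2.3.3, numpy 2.4.6 and matplotlib 3.10.9 were used for tables and figures. The fit was repeated without each library in turn, with a replicate block, with eBayes without a trend, with median-of-ratios, TPM or quantile scaling, with a pseudocount of 0.1, and with the filter dropped or set at 5 FPKM.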

Additional observations from a re-analysis of the deposited data

How the results depend on the processing

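Of 70 values of the 5 tested complement genes under 14 alternatives, 64 kept their direction and their side of the threshold, 5 (all of Cfb) lost the call and 1 turned, C5ar1 with -0.032 without FF-10501-01 replicate 3 (-0.032 to 0.29 when each library was left out in turn). The count of the 9 genes called higher was 4 as reported and 3 to 4 under the alternatives. The 4 calls among the other complement genes came to 2 with no filter, and to 2 to 4 when a library was left out. Over all entries, 818 were higher and 821 lower as reported, 337 and 244 with no filter, 512 lower with eBayes without a trend, and 147 to 884 higher and 71 to 789 lower when a library was left out. The lowest of these counts came without FF-10501-01 replicate 3. With the replicate block, 4 of the 9 genes and 4 of the other complement genes were higher, and 650 entries were higher and 602 lower, and the block changed no call of a complement gene (adjusted p = 0.0378 for Cfb from limma). The causes of these shifts were not tested. C3ar1 and the C1q genes were under the filter and did not enter the fit as reported.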
